A study of Rattus norvegicus with 67 samples.

Results

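The transcripts described here were chosen by their levels in TPM, the share of a library's transcripts that a transcript makes up, scaled for its length. A transcript was taken when it reached 5 TPM in at least 90% of the 31 normal endometrium libraries of the rule and lay below 1 TPM in 3 or more of the 31 endometrial tumour libraries. 24 of the 31715 transcripts in the table met both conditions, out of 9373 that met the normal condition. The normal libraries S1, S20 and S35, which the study's supplement gives as mixed tissue, stood outside the rule. The choice therefore fixed that these transcripts were high in most normal libraries and low in some tumours, and tumour against normal is given below as a description with no test.

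All libraries came from female virgin BDII/Han rats, an inbred strain with an intact immune system in which endometrial tumours arise spontaneously, without a transgene or a carcinogen. NCD rats ate normal chow (3% of calories as fat) and HFD rats a high fat diet (60% of calories as fat) from 3 months of age, and tissue was taken at 15 months. Of the HFD rats, LIR rats received liraglutide, a long-acting agonist of the GLP-1 receptor, at up to 0.24 mg/kg/day, and RES rats had restricted access to the same diet from 12 months of age. Batch, as the labels give it, had 2 levels. Batch 1 held 14 tumour libraries of 5 NCD rats, 11 tumour libraries of 4 HFD rats without intervention and 8 normal libraries of 8 rats, 4 on each diet, among them S1, S20 and S35. Batch 2 held only HFD rats, with 10 RES, 12 LIR and 4 untreated normal libraries, 3 RES tumour libraries of 2 rats and 3 LIR tumour libraries of 2 rats. Rats were counted as a number within a diet, intervention and batch, which gave 37 rats. The labels spread the NCD tumour libraries over more rats than the study's text counts, and the labels were followed. Since the labels use some numbers in more than 1 group, number 13 of the untreated HFD rats in both batches could also be 1 animal. The summed estimated counts ran from 15310806 to 20029879 per library.

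The endometrium is the inner lining of the uterus, made of glandular and surface epithelium on a stroma that responds to oestrogen and progesterone. In spontaneous endometrial adenocarcinoma, glands grow at the expense of stroma, so that a bulk tumour library holds another mix of cells than normal lining does, and in such libraries fewer cells of a type and less RNA per cell cannot be told apart. A transcript is 1 of the RNA forms of a gene, and a form can fall while another form of the same gene takes its reads. The transcripts are named by their Ensembl rat identifiers. No gene names are given, because the tables used here do not pair these identifiers with symbols, and for the same reason cell type markers could not be read and the tissue labels were not checked against them.

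The label of a loss in tumours held for part of the 24 transcripts only. Of their 744 tumour values, 141 (19.0%) lay below 1 TPM, and 60 of these were listed at 0. Of the values in normal libraries of batch 1 within the rule, 20 of 120 (16.7%) were below 1 TPM, against 124 of 600 (20.7%) in the tumours of batch 1. In batch 2, 0 of 624 normal values and 17 of 144 tumour values (11.8%) were below 1 TPM. Over all 9373 transcripts that met the normal condition these shares were 0.160% and 0.0687% in batch 1 and 0.0361% and 0.285% in batch 2. S6, a normal library of batch 1 that was left out only after the data were examined, held 11 of the 20 low normal values of batch 1, and without it 9 of 96 (9.38%) were below 1 TPM. Without S42 and S43, the tumour libraries of RES rat 9, it was 3 of 96 values (3.13%) in the tumours of batch 2. In batch 1 the low values were thus shared by normal and tumour libraries, and in batch 2 they were found in tumours of RES rats.

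**Figure D1:**
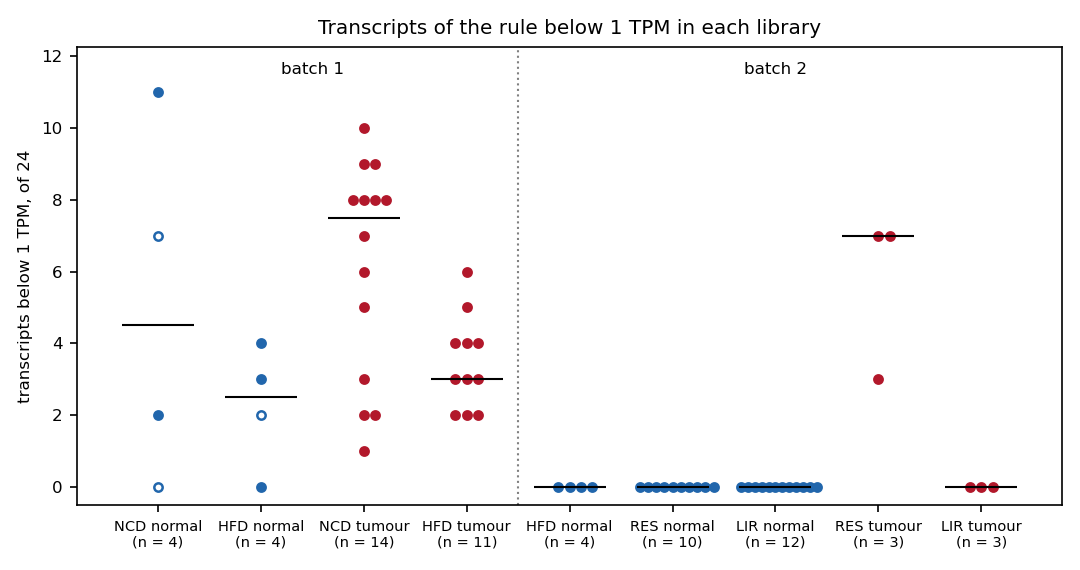
Number of the 24 transcripts below 1 TPM (vertical axis) in each of the 65 libraries, by diet, intervention, tissue and batch (horizontal axis). Blue points are normal and red points tumour libraries, open points are S1, S20 and S35, and black lines are group medians. NCD tumours ran from 1 to 10 transcripts, HFD tumours of batch 1 from 2 to 6, S6 reached 11, and in batch 2 only the RES tumours rose above 0.

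Among tumours, NCD libraries held the largest share of low values under the rule as given, and this order changed with the rule. In the 14 NCD tumour libraries 86 of 336 values (25.6%) were below 1 TPM, and a library had from 1 to 10 of the 24 transcripts there (median 7.5). In the 11 HFD tumour libraries of batch 1 this was 38 of 264 values (14.4%), with 2 to 6 transcripts per library (median 3). Averaged within rats first, NCD rats had 6.03 ± 2.69 transcripts below 1 TPM (SD, n = 5 rats) and HFD rats 3.19 ± 0.812 (SD, n = 4 rats). The ranges overlapped, since NCD rat 5 had 1 to 3 such transcripts per library and HFD rat 12 had 2 to 6. NCD rats 1, 6 and 7 were highest, at 33.3%, 33.3% and 31.9% of their values. 22 of the transcripts were below 1 TPM in an NCD tumour and 18 in an HFD tumour of batch 1. With all normal libraries required at 5 TPM (3 transcripts) the shares were 28.6% in NCD and 39.4% in HFD tumours, and with the rule on batch 1 alone 26.4% and 30.1%. The rule on batch 1 alone gave largely other transcripts, with 2 of its 26 among the 24. With a tumour threshold of 2 TPM, RES tumours were above NCD tumours, at 37.4% against 17.6%. Of the 24, 16 were low on both diets, 6 in NCD tumours without an HFD tumour of batch 1, and 2 the other way round. Among normal libraries of batch 1 within the rule, NCD was also the higher. It had 13 of 48 values (27.1%) below 1 TPM, against 7 of 72 (9.72%) in HFD, and 11 of the 13 were in S6. Over all 9373 transcripts that met the normal condition, the tumour shares were 0.0899% in NCD and 0.0417% in HFD of batch 1.

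The interventions could be compared with each other only within batch 2. In the 3 RES tumour libraries 17 of 72 values (23.6%) were below 1 TPM, with 3 transcripts in the tumour of rat 2 and 7 in each of the tumour libraries of rat 9. In the 3 LIR tumour libraries 0 of 72 values were below 1 TPM, and the LIR tumours of rats 19 and 24 kept at least 22 of the 24 transcripts at 5 TPM or more. Each arm rested on 2 rats, and tumours of untreated HFD rats were present in batch 1 only, so that intervention and batch cannot be told apart between LIR or RES tumours and the others.

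The transcripts fell into a set of 15 that were never below 1 TPM in a batch 2 tumour and a set of 9 that were below 1 TPM in at least 1 RES tumour. This division was made from the values and carries no test. The 15 had a median length of 636 bases, with 11 of them under 1000 bases, and the 9 had a median length of 2521 bases, with 2 under 1000 bases. Over all 24 the median length was 811.5 bases and 54.2% were under 1000 bases, against 2031 bases and 14.7% over the 9373 transcripts. Length sets how many reads stand behind a level. For the shortest, ENSRNOT00000061493.4 of 213 bases, 1 TPM corresponded to 0.899 estimated counts, and for the longest, ENSRNOT00000087723.1 of 4373 bases, to 62.3.

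**Figure D2:**
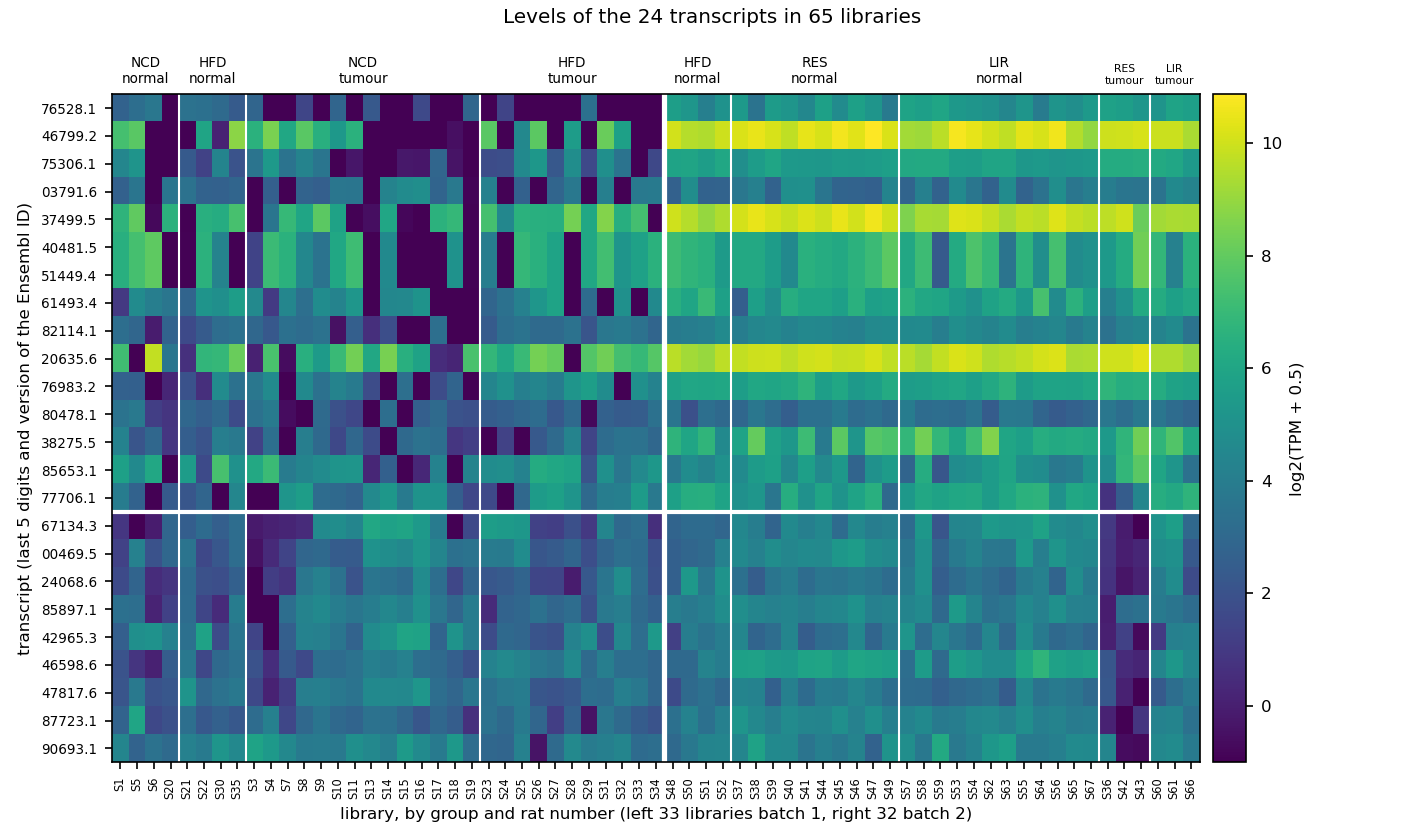
Level of each of the 24 transcripts, as log2(TPM + 0.5) in colour, in the 65 libraries. Rows above the horizontal line are the 15 transcripts not below 1 TPM in a batch 2 tumour and rows below it the 9 that were. Columns are libraries by group and rat, and the thick vertical line divides batch 1 (left) from batch 2. The upper rows are dark in many libraries of batch 1, normal and tumour, and light throughout batch 2, and the lower rows are dark in the RES tumours S36, S42 and S43.

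In the set of 15, several transcripts were lower in batch 1 in both tissues. ENSRNOT00000076528.1 (861 bases) was below 1 TPM in 17 tumour libraries of 9 rats, the most of any of the 24. It ran from 0 to 9.93 TPM in the HFD tumours of batch 1 (median near 0) and from 0 to 7.13 TPM in the NCD tumours. In batch 2 it stood at 54.7, 49.1 and 37.2 TPM in the RES tumours and at 34.9, 57.7 and 51.1 TPM in the LIR tumours. Normal libraries of batch 1 within the rule gave 8.03 to 12.6 TPM, and those of batch 2 gave 11.0 to 62.1 TPM. It was thus lower in tumours than in normal endometrium within batch 1 and not within batch 2.

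ENSRNOT00000046799.2 (450 bases) had the highest normal median of the 24, at 1067 TPM, and that median came from batch 2. It was below 1 TPM in 12 tumour libraries of 5 rats, including all 4 libraries of NCD rat 6 and all 3 of NCD rat 7, while the other tumours of batch 1 reached up to 362 TPM. The normal libraries of batch 1 within the rule were as divided, with 227 and 60.5 TPM in NCD rat 2 and HFD rat 10, 0.598 TPM in HFD rat 13, 0 in HFD rat 8, and a value near 0 in S6, the library of NCD rat 3. All 32 libraries of batch 2 lay between 485 and 1866 TPM, the tumours between 660 and 1124 TPM.

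ENSRNOT00000037499.5 (456 bases) and ENSRNOT00000020635.6 (636 bases) had the next highest normal medians, 893 and 839 TPM. ENSRNOT00000037499.5 was below 1 TPM in 7 tumour libraries of 5 rats, 6 of these libraries from NCD rats, and also in the normal libraries of HFD rat 8 and of S6, and it gave 283 to 1039 TPM in the tumours of batch 2. ENSRNOT00000020635.6 was below 1 TPM in 5 tumour libraries of 4 rats and in the normal library of NCD rat 2, where S6 gave 878 TPM. The tumours of batch 2 gave 518 to 1307 TPM. The same NCD normal library could therefore be near the top for one of these transcripts and at the bottom for another.

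ENSRNOT00000075306.1 (1593 bases) was below 1 TPM in 8 NCD tumour libraries and 1 HFD tumour library, including all 4 of NCD rat 6. Its NCD tumours ran from 0 to 41.1 TPM (median 0.346) and its HFD tumours of batch 1 up to 38.8 TPM (median 4.35). The RES tumours stood at 78.7, 78.2 and 82.3 TPM and the LIR tumours at 73.8, 64.5 and 41.2 TPM, above or within the batch 2 normal range of 28.7 to 74.2 TPM. ENSRNOT00000061493.4 was listed at 0 in 7 tumour libraries of 5 rats, among them all 3 of NCD rat 7 and the single library of HFD rat 21, and batch 2 tumours gave 16.8 to 78.3 TPM.

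ENSRNOT00000040481.5 and ENSRNOT00000051449.4, both of 360 bases, had the same estimated counts in every library, so that the 24 transcripts gave 23 distinct profiles and these 2 are 1 measurement. They were below 1 TPM in 7 tumour libraries of 4 rats, and in the normal library of HFD rat 8. ENSRNOT00000003791.6 (1869 bases) was below 1 TPM in 8 tumour libraries spread over 7 rats. Its estimated counts stood near whole multiples of 155, within 10% of that step in 53 of the 65 libraries. With every library set to its nearest multiple, 9 were at 0, 21 at 1 step and 17 at 2 steps. Those at 2 steps ran from 277 to 311 counts, so some lay outside the 10%. ENSRNOT00000080478.1 (1417 bases) was below 1 TPM in both libraries of NCD rat 4 and in 3 other tumour libraries, and its normal medians were close in the 2 batches, at a log2 difference of 0.24.

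The set of 15 was chosen to have its low tumour values in batch 1, so its difference between tumours of the 2 batches is a description that the choice largely fixes. All 15 had a higher median in batch 2 than in batch 1 tumours, by 0.97 to 6.66 on the log2(TPM + 0.5) scale (median 1.75), and 12 of the 15 were higher in batch 2 among normal libraries too (median 1.95). Of all 9373, 52.4% were higher in batch 2 among tumours and 69.7% among normal libraries. The rule, with most of its normal libraries in batch 2, favours the difference among normal libraries as well. Tumours minus normal libraries gave a median of -0.30 in batch 1 and 0.13 in batch 2. Over all 24 transcripts, batch 2 minus batch 1 had a median of 1.84 in normal libraries and 1.15 in tumours, against 0.26 and 0.02 for all 9373, and tumour minus normal had a median of 0.17 in batch 1, the same as for all 9373. S6 decided the sign of the last value: without it tumour minus normal in batch 1 had a median of -0.13 over the 24, against 0.19 for all 9373, and batch 2 minus batch 1 in normal libraries was still 1.55, against 0.28. Of the 31 normal libraries of the rule 26 were of batch 2, and of the 31 tumour libraries 25 were of batch 1. A transcript low in several libraries of both tissues in batch 1 could thus meet the rule. It could not be low in all of batch 1, since 28 normal libraries had to reach 5 TPM.

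**Figure D3:**
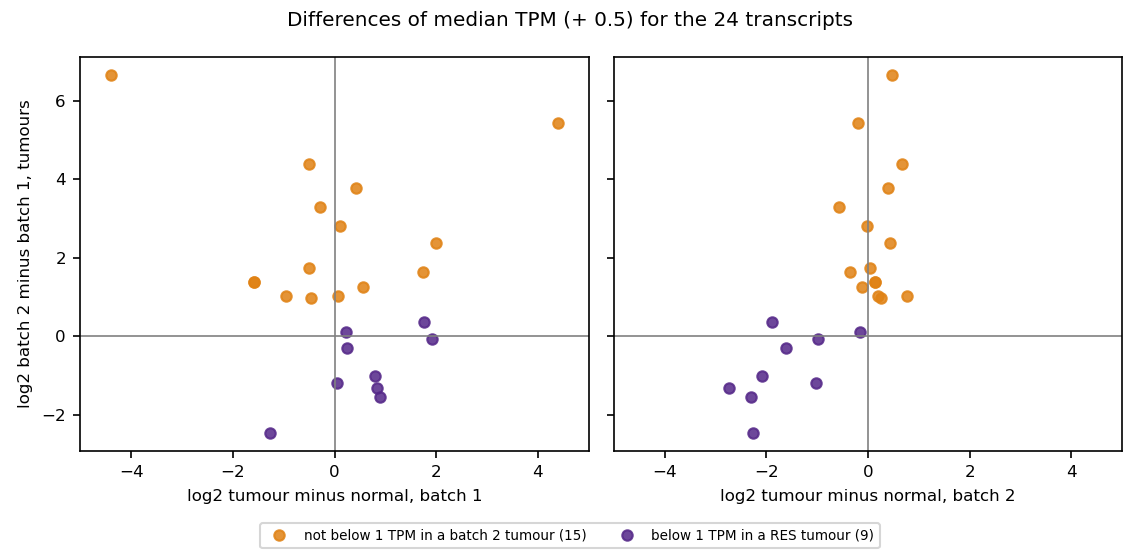
Log2 difference of group medians of TPM + 0.5 for each of the 24 transcripts, batch 2 minus batch 1 in tumours (vertical axis) against tumour minus normal within batch 1 (left) and within batch 2 (right). Orange points are the 15 transcripts not below 1 TPM in a batch 2 tumour and purple points the 9 that were, and S1, S20 and S35 are left out. All orange points lie above 0 on the vertical axis and on both sides of 0 on the horizontal axes, and all purple points lie left of 0 in batch 2.

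The batch difference was tested in untreated HFD normal endometrium, 4 rats in each batch, which is a comparison added after the data were examined. limma called 957 of 19937 transcripts (4.8%) at an adjusted p below 0.05, and 2 of the 24, both higher in batch 2. Of all transcripts 2.58% were higher and 2.22% lower in batch 2. At an unadjusted p below 0.05, 15 of the 24 (62.5%) passed, against 26.9% of all transcripts tested. Most tumours of the rule were of batch 1 and most of its normal libraries of batch 2. All libraries compared here except S35 were among those normal libraries. The choice itself thus favours transcripts that are low in batch 1 and high in batch 2. Neither this share nor the 2 calls are independent support for a batch difference. ENSRNOT00000075306.1 gave 4.68, 2.06, 19.6 and 3.56 TPM in batch 1 and 58.9, 61.4, 48.8 and 66.2 TPM in batch 2, a log2 difference of 3.41 ± 0.55 (SE, limma adjusted p = 0.0255). ENSRNOT00000076983.2 (736 bases) gave 3.49, 1.02, 25.9 and 10.3 TPM against 55.7, 65.2, 62 and 66.5 TPM, a log2 difference of 3.38 ± 0.69 (SE, limma adjusted p = 0.0378). In both the batches did not overlap. The calls depended on single rats and on the tool. ENSRNOT00000075306.1 lost its call without rat 10 of batch 1 or any of the 4 rats of batch 2, with limma adjusted p from 0.0519 to 0.0775. ENSRNOT00000076983.2 kept its call in 1 of the 8 fits that left out a rat, the one without rat 13 of batch 1, and without S35 its limma adjusted p was 0.0535. edgeR also called 2 of the 24, with 1051 of all 19937 transcripts, but these were ENSRNOT00000038275.5 and ENSRNOT00000076528.1. DESeq2 called 9 of the 24, with these 4 among them, and 3942 of all.

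Each of the set of 9 was below 1 TPM in at least 1 RES tumour library, while normal endometrium of the same rats was not. The 9 were chosen by these low values, and the rule kept most normal libraries of batch 2 at 5 TPM or more. Their differences from other tumours and from normal endometrium of batch 2 are thus descriptions that the choice largely fixes. In RES rat 9, 8 of the 9 were below 1 TPM in at least 1 of the tumour libraries S42 and S43 and 6 in both, and in its normal library S44 all 24 transcripts were at 5 TPM or more. In RES rat 2, the tumour library S36 had 3 transcripts below 1 TPM, and its normal library S37 had all 24 at 5 TPM or more. Of the values of these 9 in RES tumours, 17 of 27 (63%) were below 1 TPM, against 13 of 126 (10.3%) in NCD tumours, 5 of 99 (5.05%) in HFD tumours of batch 1 and 0 of 27 in LIR tumours. In normal libraries of batch 1 within the rule it was 6 of 45 (13.3%), and 2 of 36 (5.56%) without S6. Tumours minus normal libraries gave a median log2 difference of 0.80 in batch 1 (0.03 without S6), with 1 of the 9 below 0. In batch 2 that median was -1.89, and -0.37 without S42 and S43.

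ENSRNOT00000046598.6 (3622 bases) stood at 0.861 and 0.675 TPM in the tumour libraries of RES rat 9 and at 59.7 TPM in its normal library. In RES rat 2 it was 3.95 TPM in the tumour and 52.8 TPM in the normal library. The third tumour library below 1 TPM was of NCD rat 1, at 0.974 TPM. ENSRNOT00000000469.5 (2254 bases) gave 0.496 and 0.695 TPM against 23.8 TPM in RES rat 9 and 1.26 against 23.9 TPM in RES rat 2, and it was below 1 TPM in both tumour libraries of NCD rat 1. Among tumours, both transcripts were below 1 TPM only in RES rat 9 and NCD rat 1, for the first in S4 but not in S3 of NCD rat 1. For the first, the normal library S6 of NCD rat 3 was also below 1 TPM, and lower than any tumour. Other tumours of batch 1 reached 24.3 TPM for the first and 37.7 TPM for the second.

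ENSRNOT00000067134.3 (753 bases) was below 1 TPM in every library of 3 tumour rats, the most of the 24: NCD rat 1 (0.404 and 0.553 TPM), NCD rat 4 (0.675 and 0.859 TPM) and RES rat 9 (0.442 and 0 TPM, against 22.0 TPM in the normal library). It was not low in all NCD tumours, since NCD rat 6 gave 41.7 to 67.9 TPM, where the highest normal library of the study gave 56.9 TPM. The normal libraries of NCD rats within the rule were low too, at 0 and 0.428 TPM. Those of HFD rats in batch 1 gave 5.30 to 8.51 TPM. ENSRNOT00000024068.6 (2521 bases) gave 0.302 and 0.590 TPM in the tumours of RES rat 9, below each of the 10 normal libraries of RES rats (5.2 to 15.8 TPM). ENSRNOT00000085897.1 (2008 bases) was listed at 0 in both tumour libraries of NCD rat 1 and gave 0.454 TPM in the tumour of RES rat 2, against 28.8 TPM in that rat's normal library, but 8.90 and 10.3 TPM in the tumours of RES rat 9. The tumours of the 2 RES rats thus did not lose the same transcripts throughout. In normal libraries of batch 1 within the rule, ENSRNOT00000085897.1 ran from 0.620 to 9.39 TPM, with 2 of them below 1 TPM.

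ENSRNOT00000090693.1 (2838 bases) was below 1 TPM in both tumour libraries of RES rat 9 (0.148 and 0.111 TPM, against 16.9 TPM in the normal library) and in 1 HFD tumour library, and 20.9 TPM in the tumour of RES rat 2. It was at 5 TPM or more in all 31 normal libraries of the rule. ENSRNOT00000047817.6 (3261 bases) gave 0.564 and 0 TPM in the tumours of RES rat 9 against 15.3 TPM. ENSRNOT00000087723.1 gave 1.29 TPM in one of them and a value near 0 in the other, against 19.8 TPM. ENSRNOT00000042965.3 (762 bases) gave 1.98 and 0.117 TPM against 8.80 TPM, and it was also low in a LIR tumour, at 1.53 TPM. Of the 13 low values of this set in NCD tumours, 10 were in the 2 libraries of NCD rat 1.

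Among all libraries, S43 had the most low values, and S42 was not alone in its level. Of the 9373 transcripts that met the normal condition, 103 were below 1 TPM in S43, 47 in S42 and 4 in S36. The 25 tumour libraries of batch 1 had 1 to 15, but the normal libraries S64 (LIR rat 20, batch 2) and S6 had 74 and 53. S64 had 0 of the 24 transcripts below 1 TPM. The share of these transcripts that were lower by more than 1 on the log2 scale in tumour than in normal endometrium of the same rat was 20.0% in RES rat 9 and 12.5% in RES rat 2, against 1.11% and 2.13% in LIR rats 19 and 24. Of the 24 transcripts, 10 and 9 were lower by that much in RES rats 9 and 2, and 2 and 5 in LIR rats 19 and 24.

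**Figure D4:**
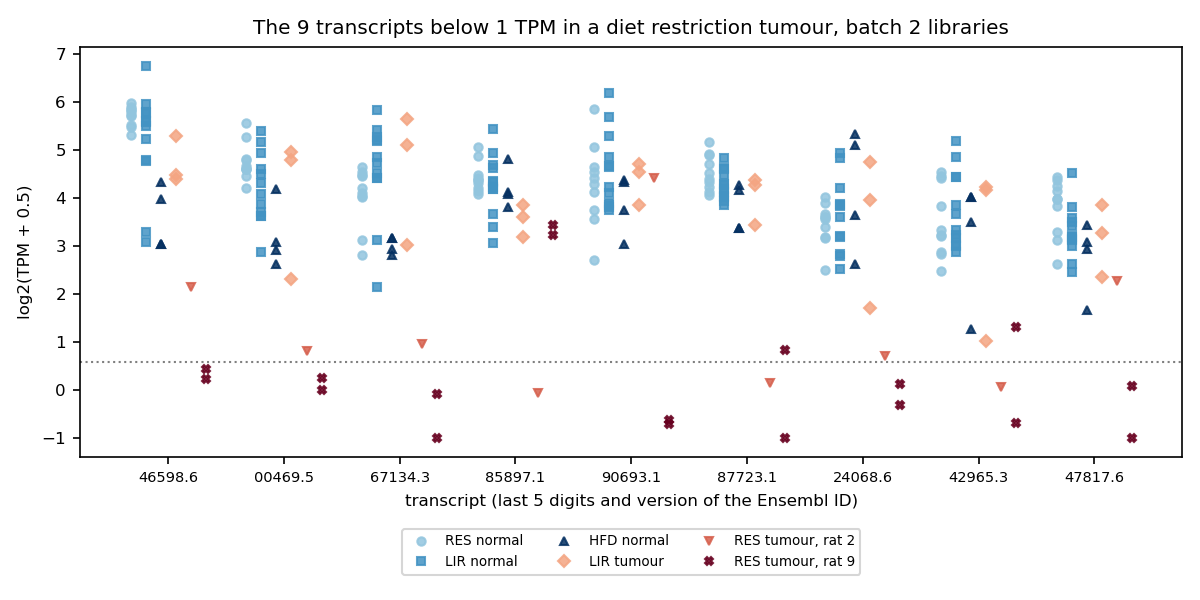
Level, as log2(TPM + 0.5), of the 9 transcripts that were below 1 TPM in a RES tumour, in the 32 libraries of batch 2. Each symbol is 1 library, colours and shapes give intervention, tissue and, for RES tumours, the rat, and the dotted line is 1 TPM. The crosses of RES rat 9 lie at or below the dotted line for most transcripts, with ENSRNOT00000085897.1 above it, and the LIR tumours lie within or near the normal libraries.

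The interventions were compared with no intervention in normal endometrium of batch 2, which the rule had not contrasted. Diet restriction (10 libraries) against none (4 libraries) changed 20.7% of the 19954 transcripts tested, and 3 of the 24, which is 2 higher and 1 lower. Of all transcripts 8.13% were higher and 12.5% lower. ENSRNOT00000046598.6 was 7.78, 7.81, 19.6 and 15.4 TPM without intervention and 39.6 to 62.7 TPM (median 53.9) with restriction, a log2 difference of 2.00 ± 0.49 (SE, limma adjusted p = 0.00758). The groups did not overlap. ENSRNOT00000000469.5 was 5.69, 7.06, 7.99 and 17.8 TPM without intervention and 18.1 to 47.2 TPM (median 24.4) with restriction, a log2 difference of 1.44 ± 0.41 (SE, limma adjusted p = 0.0156), and the groups did not overlap. These 2 transcripts, higher in normal endometrium of RES rats, were among those below 1 TPM in the tumours of RES rat 9.

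ENSRNOT00000075306.1 was 58.9, 61.4, 48.8 and 66.2 TPM without intervention and 28.7 to 62.9 TPM (median 44.9) with restriction, a log2 difference of -0.58 ± 0.20 (SE, limma adjusted p = 0.0364). The groups overlapped. Leaving out 1 rat ended the call for ENSRNOT00000000469.5 in 2 cases (untreated rat 13 or 15, limma adjusted p = 0.0662 and 0.0503) and for ENSRNOT00000075306.1 in 5 (RES rat 2 or 9, untreated rat 13, 15 or 17, with limma adjusted p from 0.0529 to 0.127). By limma on log2(TPM + 0.5) the lower call was lost too (limma adjusted p = 0.112 for ENSRNOT00000075306.1). ENSRNOT00000046598.6 kept its call in all 21 alternatives run. Without RES rat 4, 5 of the 24 were called, with 3781 of all 20057 transcripts tested in that fit.

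Liraglutide (12 libraries of 9 rats) against no intervention gave 0 of the 24 at a limma adjusted p below 0.05, against 1.02% of all transcripts (0.1% higher and 0.917% lower), and 3 of the 24 (12.5%) at an unadjusted p below 0.05, against 16.6% of all. edgeR called 0 of the 24 and 20 of all 19954 transcripts, and DESeq2 called 2 of the 24 and 731 of all. ENSRNOT00000046598.6 ran from 7.97 to 108 TPM (median 46.4) in LIR normal endometrium, a log2 difference of 1.5 ± 0.48 (SE, limma adjusted p = 0.116). It was called without LIR rat 14 (limma adjusted p = 0.0270) or LIR rat 17 (limma adjusted p = 0.0240), the 2 rats with the lowest levels, at 9.36 and 7.97 TPM. ENSRNOT00000067134.3 was 6.52, 8.45, 8.48 and 7.14 TPM without intervention and 3.93 to 56.9 TPM (median 27.4) with liraglutide, a log2 difference of 1.54 ± 0.64 (SE, limma adjusted p = 0.232). The liraglutide and restriction comparisons share the 4 untreated libraries.

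Diet was compared within batch 1. In tumours, HFD (11 libraries, 4 rats) against NCD (14 libraries, 5 rats) gave 0 calls among the 23 of the 24 that passed the filter on low counts, against 0% of the 20071 transcripts tested, by limma with the correlation within rats estimated at 0.590. ENSRNOT00000076528.1 did not pass that filter. At an unadjusted p below 0.05 there was 1 of the 23, and 173 transcripts in all. On counts summed per rat, edgeR called 0 of the 23 and 0 of all, and DESeq2 called 0 of the 23 and 1 of all. Of the 23, 17 were higher in HFD tumours, with a median log2 difference of 0.76, against 0.01 for all transcripts, and the standard errors ran from 0.50 to 3.29. ENSRNOT00000046598.6 had the smallest p. It ran from 7.07 to 24.3 TPM (median 13.2) in HFD tumours and from 0.974 to 17.8 TPM (median 8.32) in NCD tumours, a log2 difference of 1.36 ± 0.50 (SE, limma adjusted p = 1.00). ENSRNOT00000082114.1 (1407 bases) was below 1 TPM in 6 libraries of 3 NCD rats and ran from 3.86 to 14.2 TPM in HFD tumours, a log2 difference of 2.91 ± 1.59 (SE, limma adjusted p = 1.00), which was 0.97 by edgeR, 0.96 by DESeq2 and 1.65 by limma on log2(TPM + 0.5). The smaller number of low values in HFD tumours was thus not a difference in level that passed the test for any of them. Since these fits called 0 or 1 of all transcripts, they say little about the 23 in particular.

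In normal endometrium of batch 1, HFD against NCD (4 libraries each, S1, S20 and S35 included as labelled) gave 0 of 24 calls by limma, against 0% of the 20049 transcripts tested, with 4 of the 24 (16.7%) at an unadjusted p below 0.05, against 14.5% of all. edgeR called 0 of the 24 and 0 of all, and DESeq2 called 0 of the 24 and 1156 of all. Without S1, S20 and S35 limma called 0 of the 23 that were tested and 295 of all. ENSRNOT00000067134.3 was 5.30, 8.51, 5.5 and 8.87 TPM in HFD rats 8, 10, 13 and 22 and 1.35, 0, 0.428 and 7.11 TPM in NCD rats 1, 2, 3 and 7, a log2 difference of 3.37 ± 1.03 (SE, limma adjusted p = 0.293). That value was 5.41 without S1, S20 and S35, 2.18 without NCD rat 2 and 1.92 by edgeR and by DESeq2, with no call in any of these. ENSRNOT00000090693.1 was 17.9, 13.7, 36.3 and 22.6 TPM in the HFD rats and 20.4, 6.34, 10.5 and 8.16 TPM in the NCD rats, a log2 difference of 1.22 ± 0.45 (SE, limma adjusted p = 0.312). Both pairs of groups overlapped.

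S1, S20 and S35 came from rats that also gave tumour libraries: NCD rat 1, NCD rat 7 and HFD rat 22. S1 had 0 of the 24 transcripts below 1 TPM and 18 at 5 TPM or more, S20 had 7 and 10, and S35 had 2 and 18. Against the 5 other normal libraries of batch 1, the median log2(TPM + 0.5) difference over the 24 transcripts was 0.26 in S1, -1.08 in S20 and 0.70 in S35. The same measure for each of the 5 against the other 4 was 0.92 in S5, -1.71 in S6, 0.17 in S21, -0.18 in S22 and 0.17 in S30. S1 and S35 lay inside the range of the other normal libraries of batch 1, and S20 lay between S6 and the rest. S6, which counts as normal in the rule, had 11 of the 24 transcripts below 1 TPM, more than any tumour library, and 53 of the 9373 transcripts below 1 TPM, against 1 to 12 in the other 4 normal libraries of batch 1 within the rule.

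By transcript, ENSRNOT00000040481.5 and its twin were farthest down in the mixed libraries, at 90.1 TPM in S1 and listed at 0 in S20 and S35, next to 241 TPM in S6. ENSRNOT00000042965.3 followed, at 5.5, 18.0 and 11.6 TPM. ENSRNOT00000046799.2 was farthest up, at 166 and 440 TPM in S1 and S35 and near 0 in S20. ENSRNOT00000085897.1 gave 10.0, 1.99 and 15.1 TPM and ENSRNOT00000077706.1 gave 15.4, 4.64 and 21.3 TPM in S1, S20 and S35. Set against the tumours of the same rat, the 24 transcripts had a median log2 difference, tumour minus mixed library, of -1.33 in NCD rat 1, 0.16 in NCD rat 7 and -0.16 in HFD rat 22. Over all transcripts that met the normal condition, these medians were 0.05, 0.05 and -0.04. The rule used low values of the tumours but not S1, S20 and S35, so the choice favours a lower tumour side in these pairs. In NCD rat 1, 16 of the 24 were lower in the tumours than in S1, against 45.4% of all transcripts that met the normal condition. Among the 16 was ENSRNOT00000077706.1, which was listed at 0 in both tumour libraries.

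**Figure D5:**
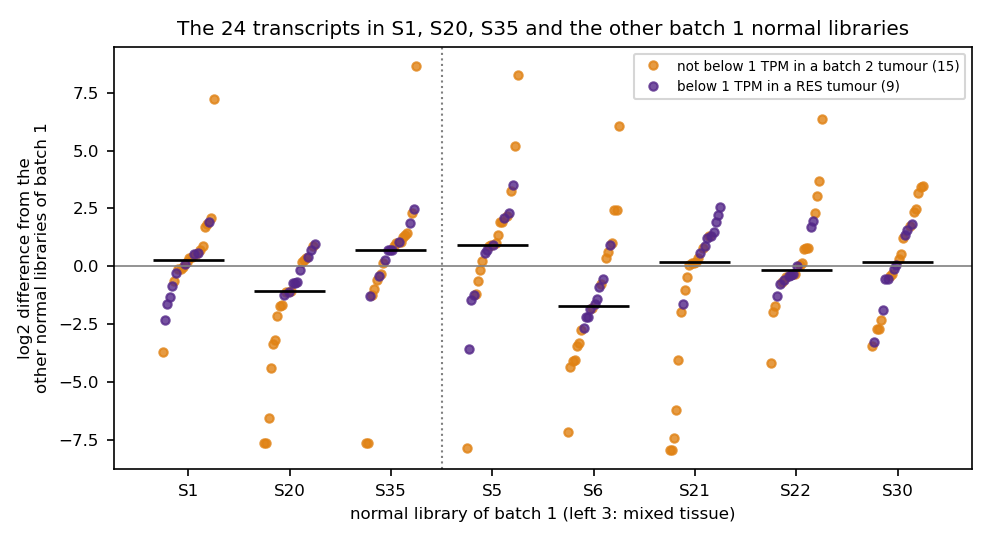
Log2(TPM + 0.5) difference of each of the 24 transcripts (points, sorted within a library) in S1, S20 and S35 from the median of the 5 other normal libraries of batch 1, and in each of those 5 from the median of the other 4. Black lines are medians, orange and purple points are the sets of 15 and 9. The medians of S1 and S35 lie above 0 and that of S20 at -1.08, between those of S6 at -1.71 and the others.

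The rule was also applied to batch 1 alone, which held tumour and normal libraries of both diets. It then gave 26 transcripts, of which 2 were among the 24. In batch 2 these 26 were below 1 TPM in 77 of 156 tumour values (49.4%) and in 46.3% of normal values, against 0.646% and 0.453% of the values of the 8749 transcripts that met the normal condition in batch 1. Transcripts chosen as low in tumours of batch 1 were thus about as often low in normal as in tumour libraries of batch 2. Asking for the normal condition in each batch on its own left 3 of the 24.

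At the edge of the rule, 6 of the 24 transcripts were below 1 TPM in exactly 3 tumour libraries and 36 transcripts outside it in exactly 2. Just inside, the third lowest tumour level was 0.974 TPM for ENSRNOT00000046598.6, 0.261 TPM for ENSRNOT00000090693.1 and 0.000257 TPM for ENSRNOT00000077706.1. Just outside, it was 4.82 TPM for ENSRNOT00000093269.1, 11.8 TPM for ENSRNOT00000014946.3 and 3.97 TPM for ENSRNOT00000009101.5. For the normal condition, 11 of the 24 had exactly 3 normal libraries below 5 TPM, and 15 transcripts with 4 such libraries stayed outside. The outside transcript with the most tumour libraries below 1 TPM among the 3 named by their normal median was ENSRNOT00000026079.6, with 15 such libraries and a normal median of 55.2 TPM. The other 2 were ENSRNOT00000074617.2 and ENSRNOT00000092275.1, with 8 and 4 such libraries.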

How the data were processed

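RNA from normal endometrium and endometrial tumours was sequenced as paired reads of 75 bases. The authors trimmed reads with BBDuk, pseudo-aligned them with Kallisto to the Ensembl Rnor_6.0 rat transcriptome and read them into sleuth, with versions not given in the sources used here. The estimated counts and TPM values per transcript that the authors deposited for 65 libraries were used. S2 and S12 were not analysed here. The other deposited columns used hold transcript lengths. A transcript was tested if 47% or more of a comparison's libraries held 5 or more estimated counts, with limma 3.58.1 (voom, median-of-ratios scaling, robust empirical Bayes, correlation within rats in 2 rounds, Benjamini-Hochberg adjustment over all transcripts). In fits that left out a rat, that correlation was held at its first value. edgeR 4.0.16 and DESeq2 1.42.0 were run on counts summed per rat and rounded. The fits were tested on simulated data. Values with no test used log2(TPM + 0.5). Kallisto divides reads between similar transcripts, so levels of transcripts that share sequence are uncertain. 1 TPM corresponded to between 0.899 and 62.3 counts by length. The named transcripts were those lost throughout the most tumour rats, highest in normal endometrium, with the smallest p, at the edge of the rule, or farthest from other normal libraries in S1, S20 and S35. No transcript had its low tumour values in a single rat. Transcripts named beyond this rule were chosen after their values were seen. The members and lists were chosen with earlier results of these data known.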

Additional observations from a re-analysis of the deposited data

Results flagged for a closer look

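Over 104 tests of groups of 4 to 10 libraries, 9 values stood apart from their group by Dixon's criterion, where chance gives about 1 in 20. In NCD normal endometrium of batch 1, S6 (rat 3) was the lowest for ENSRNOT00000037499.5, at 0.0949 TPM against 97.3 to 251 TPM, and for ENSRNOT00000082114.1, at 0.434 TPM against 6.37 to 9.18 TPM. S20 (rat 7) was listed at 0 for ENSRNOT00000040481.5 and ENSRNOT00000051449.4, against 90.1 to 241 TPM. S5 (rat 2) was the highest for ENSRNOT00000047817.6, at 13.5 TPM against 3.53 to 4.19 TPM. In HFD normal endometrium of batch 1, S21 (rat 8) was listed at 0 for ENSRNOT00000037499.5, against 80.9 to 169 TPM. In RES normal endometrium, rat 2 (S37) was the lowest for ENSRNOT00000061493.4, at 5.26 TPM against 28.4 to 92.2 TPM, and rat 11 (S46) for ENSRNOT00000085653.1, at 6.66 TPM against 22.5 to 53.3 TPM. In untreated HFD normal endometrium of batch 2, rat 15 (S50) was the highest for ENSRNOT00000003791.6, at 27.3 TPM against 5.88 to 6.27 TPM. This is the transcript whose counts mostly lay near multiples of 155.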

How the results depend on the processing

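The number of transcripts that meet the rule was 24 and became 58 with a tumour threshold of 2 TPM, 9 with a normal threshold of 10 TPM, 3 with all normal libraries at 5 TPM, 10 with S1, S20 and S35 counted as normal and 3 with the normal condition in each batch (added after the data were examined). It ran from 17 to 24 with single tumour rats left out. The share of values below the threshold in HFD tumours moved from 14.4% to 18.2% with 0.5 TPM, 9.87% with 2 TPM, 25.3% with 10 TPM, 39.4% with all normal libraries or each batch, 19.1% with S1, S20 and S35, 18.2% with libraries of at least 3 rats and 30.1% on batch 1 alone. In RES tumours it moved from 23.6% to 11.8%, 37.4%, 7.41% and 46.2% for 0.5 TPM, 2 TPM, 10 TPM and batch 1 alone. In LIR tumours it moved from 0% to 2.30% with 2 TPM and 52.6% on batch 1 alone, and in NCD tumours from 25.6% to 37.3% with 10 TPM. The rule on batch 1 alone gave 26 transcripts with 2 of the 24 among them, and 46.3% of their batch 2 normal values were below 1 TPM. NCD tumours were at 28.6% with all normal libraries or each batch, 26.4% on batch 1 alone and 17.6% with 2 TPM, below HFD tumours in the first 3 of these settings and below RES tumours on batch 1 alone and with 2 TPM. With single rats left out the shares ran from 23.0% to 33.6% (NCD), 14.1% to 18.7% (HFD) and 5.88% to 27.3% (RES, the lowest without rat 9), and stayed at 0% (LIR). Against all other normal libraries of both batches as reference, S1, S20 and S35 gave median log2 differences of -1.65, -2.94 and -1.34, so that S1 and S35 changed sign, and with single reference libraries left out they ran from 0.34 to 0.68, -1.11 to -0.72 and 0.44 to 0.77. Of the 24 transcripts, diet restriction called 6 by DESeq2 (6176 of all 19954) and 6 by limma on log2(TPM + 0.5) (4625 of all, with 6 of the 24 higher and 0 lower), and 2 to 5 with single rats left out (2157 to 4629 of all). Liraglutide called 2 by DESeq2 (731 of all), 0 to 1 with single rats left out (24 to 780 of all), and 0 (0 of all) with individual number as a replicate block. Numbers 16 and 17 are in both groups, but their deviations from the group means correlated at 0.0492 and 0.209, and they were not taken as pairs. The batch comparison called 9 by DESeq2 (3942 of all 19937), 5 by limma on log2(TPM + 0.5) (1162 of all) and 0 to 3 with single rats left out (3 to 836 of all). The diet comparisons called 0 in every alternative run. The cause of these changes was not tested. Below 1 TPM, short transcripts rest on few or no counts, and in the smallest arms on 2 rats.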
